A study of Mus musculus with 12 samples.

Results

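Activin, inhibin, TGFβ and BMP ligands were followed in fetal mouse gonads at E14.5, the stage at which germ cells of an ovary enter meiosis and those of a testis do not. The 9 genes were *Inha*, *Inhba*, *Inhbb*, *Tgfb1*, *Tgfb2*, *Tgfb3*, *Bmp4*, *Bmp5* and *Bmp7*. They were picked by name, as the genes whose symbol is printed beside a spot of the array, and all 9 were among the 18844 genes that could be tested. RNA of 1 pair of gonads per sample was hybridised with a single dye to 12 arrays, 3 for each of 4 groups. Control testes carried *Smad4Flox/+*, *StellaMerCreMer* and *Stra8+/-*. Control ovaries were of mixed genotype. Control ovary 1 had the same alleles as the testes, control ovary 2 was *Smad4Flox/+ Stra8+/-* with no Cre named, and control ovary 3 was *Smad4Flox/Flox Stra8+/-* with no Cre named. *Smad4 (Stella)* ovaries were *Smad4flox/flox* with MerCreMer and *Stra8+/−*, and double knockout (DKO) ovaries were *Smad4flox/flox* with MerCreMer and *Stra8−/−*. All 12 samples thus lacked at least 1 functional copy of *Stra8*, and no group was wild type. The Cre was driven by a *Stella* element in germ cells and was activated with tamoxifen at E9.5 and E10.5, with a variable efficiency, so that *Smad4* was targeted in germ cells while the RNA came from the whole gonad.

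These ligands are made as precursors that pair into dimers, and each mature subunit is folded around a knot of cysteines. *Inhba* and *Inhbb* encode the β subunits, which pair with each other to form activins or with the α subunit encoded by *Inha* to form inhibins, which oppose activins. Activins and TGFβs signal through receptors that phosphorylate SMAD2 and SMAD3, BMPs through receptors that phosphorylate SMAD1, SMAD5 and SMAD9, and both branches use SMAD4 as the common partner. In the fetal testis, Sertoli and Leydig cells are known sources of activin A, inhibin subunits and AMH, whereas the fetal ovary is known for BMP2 and for the activin-binding protein follistatin.

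On this array the level of each ligand rests on probes of 60 bases, and the probes of 5 genes that lie in coding sequence are shown because most of the differences described here were read from them. Bases are given 5′ to 3′ on the coding strand as the array files hold them, with mm9 coordinates, and capitals mark cysteine codons in the reading frame of the protein.
Inha, chr1:75506675-75506734, plus strand, end of the mature α subunit: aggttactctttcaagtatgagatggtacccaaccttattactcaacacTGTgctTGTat
Inhba, chr13:16118634-16118693, plus strand, mature βA subunit: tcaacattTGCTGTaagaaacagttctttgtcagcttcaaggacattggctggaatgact
Inhbb, chr1:121314417-121314476, minus strand, βB precursor: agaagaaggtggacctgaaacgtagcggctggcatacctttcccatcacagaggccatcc
Tgfb1, chr7:26489877-26489936, plus strand, mature TGFβ1: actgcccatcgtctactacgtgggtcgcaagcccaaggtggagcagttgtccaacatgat
Bmp4, chr14:47003802-47003861, minus strand, mature BMP4: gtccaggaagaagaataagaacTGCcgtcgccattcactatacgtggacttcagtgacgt
The *Inha* and *Inhba* probes each hold 2 of these codons and the *Bmp4* probe holds 1, whereas the *Tgfb1* and *Inhbb* probes hold 0. Across the 9 ligands there were 14 probes, of which 12 were bright enough to be kept, and these 12 were well above background on all 12 arrays. Both probes left out were for *Bmp5*, whose level therefore rests on 1 of 3 probes. *Inha*, *Inhbb* and *Bmp7* were read by 2 probes each, and the other 6 ligands by 1 each. The probes of *Tgfb1* and *Bmp4* and 1 of *Bmp7* (A_51_P492366) were spotted 10 times on each array.

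Levels are given as log2 of the processed intensity minus the 75th percentile of the array, so that a level of 0 is the 75th percentile. They can be set side by side for 1 gene between arrays, but not between genes, since probes differ in brightness. The 75th percentile itself was at an intensity of 476 to 997, and 58.8% to 70.5% of the probes were well above background on an array. Pearson's r across genes between arrays of a group was 0.974 to 0.994. Of the targeted genes, *Stra8* was at 5.28 to 5.61 in DKO ovaries against 6.16 to 6.71 in control ovaries and -2.98 to -2.32 in control testes, and *Smad4* was at 1.96 to 2.19 in DKO ovaries and 2.08 to 2.26 in *Smad4 (Stella)* ovaries against 1.99 to 2.35 in control ovaries. A probe outside the deleted part of a gene does not check its deletion, and where the deleted parts lie relative to these probes is not given in the sources used here. Control ovary 3 stood apart in skeletal muscle genes, 6 of which were measured and had a mean level of 1.52, whereas their mean was -3.33 to -2.04 on the other 11 arrays. The labels do not say that this sample held other tissue. Values without it are given beside the ligands whose call or sign depended on it. They are also given for *Inhba*, *Tgfb2*, *Tgfb3*, *Bmp4* and *Bmp5*, of which it was the highest control ovary. The arrays lay on 3 slides. Slide 1 held the 3 control testes and control ovary 1, slide 2 held control ovaries 2 and 3 and DKO ovaries 1 and 2, and slide 3 held the 3 *Smad4 (Stella)* ovaries and DKO ovary 3.

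**Figure D1:**
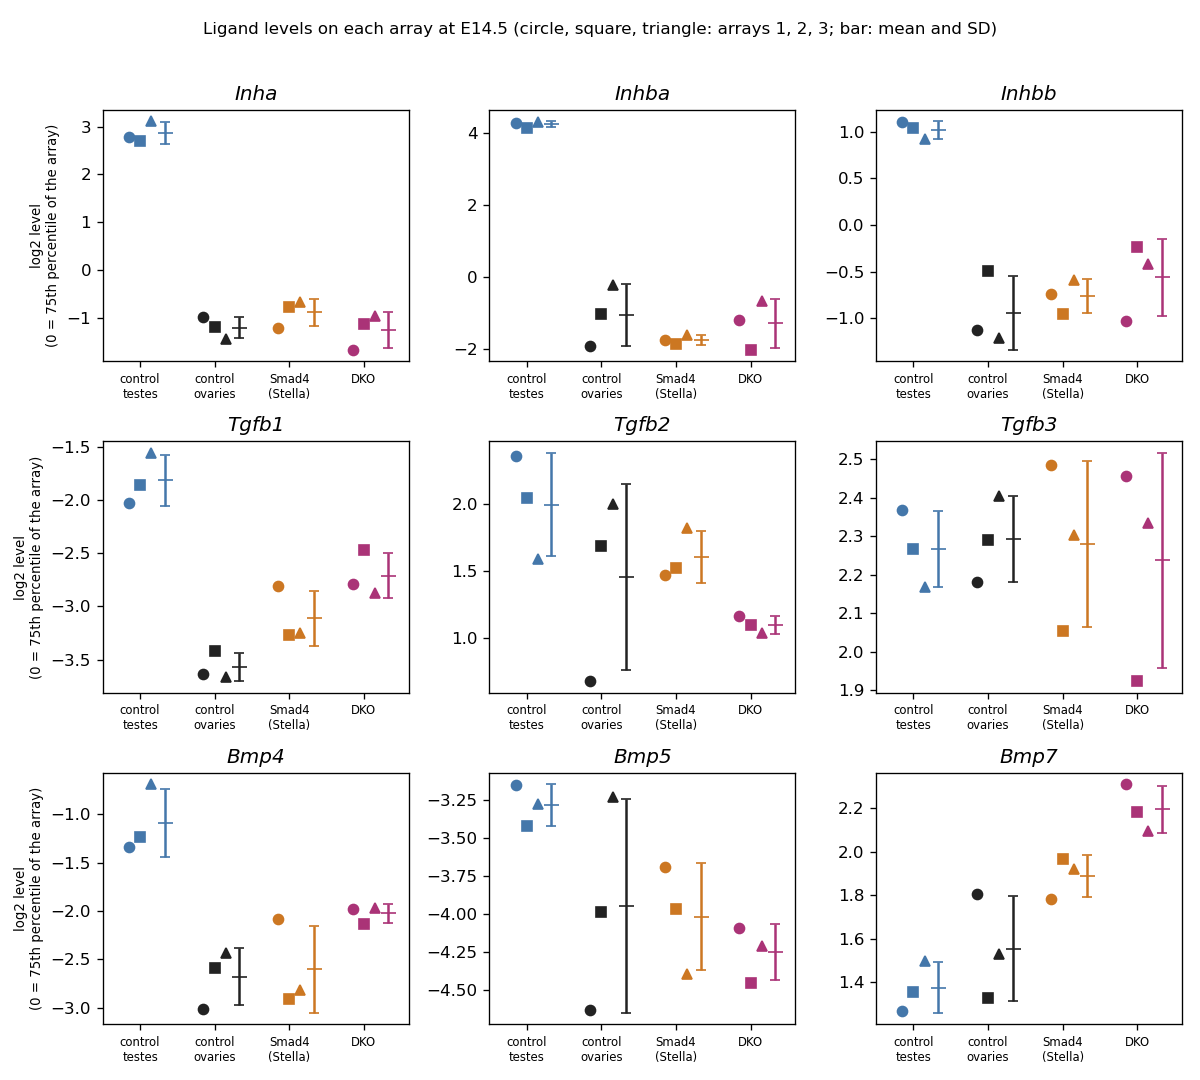
Relative log2 level of each of the 9 ligands (vertical axes, 0 is the 75th percentile of the array, ranges differ between panels) on each of the 12 arrays, by group; circles, squares and triangles are arrays 1, 2 and 3 of a group, and bars are the mean and SD. The 3 testes lie above all 9 ovaries for *Inha*, *Inhba*, *Inhbb*, *Tgfb1* and *Bmp4*, and the 3 DKO ovaries lie above all other arrays for *Bmp7*.

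The comparison of control testes with control ovaries asks how the ligands differ between the sexes in somatic and germ cells together. Here 5 of the 9 ligands were higher in testes, namely *Inhba*, *Inha*, *Inhbb*, *Tgfb1* and *Bmp4*, and 0 were lower (limma, adjusted p under 0.05 and at least 1.5-fold). Of all genes tested, 33.9% passed in either direction and 17.2% were higher in testes. The median log2 fold change of the 9 ligands was 1.59, against 0.02 for all genes. The 3 arrays of the groups did not overlap for 5 of the 9 ligands, and for 58.4% of all genes. In a bulk sample, a higher level in more cells of a type cannot be told apart from more RNA per cell.

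*Inhba*, the βA subunit of activin A, had the largest difference of the 9 between the sexes. In testes it stood at 4.28, 4.16 and 4.33, against -1.93, -1.03 and -0.22 in the control ovaries. Every testis was far above every ovary, and the testes lay close together while the control ovaries were spread out, with control ovary 3, the array with muscle genes, the highest. The log2 fold change was 5.31 (SE 0.40, limma adjusted p = 3.05e-06), or 39.8-fold with a 95% interval from 21.4 to 74.0. Without control ovary 3 it was 5.73 (adjusted p = 4.38e-06), and against control ovary 1 alone, on the slide that holds the testes, it was 6.18.

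*Inha*, the α subunit that turns a β subunit into inhibin, was at 2.80, 2.69 and 3.12 in the control testes and at -1.0, -1.20 and -1.44 in the control ovaries. The groups were again far apart and each was tight. Its log2 fold change was 4.08 (SE 0.22, limma adjusted p = 2.90e-07), or 16.9-fold with an interval from 12.1 to 23.6. Its other probe, at chr1:75503955-75504014, gave the same difference as the probe printed above, 4.08 each.

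*Inhbb*, the βB subunit, differed less. In the control testes it was at 1.11, 1.04 and 0.92, and in the control ovaries at -1.13, -0.49 and -1.21. Control ovary 2 was the highest ovary of its group but stayed below every testis. The log2 fold change was 1.96 (SE 0.23, limma adjusted p = 6.22e-05), with 1.82 from the probe A_51_P325904 and 2.11 from the probe printed above.

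*Tgfb1*, which encodes TGFβ1, was at -2.03, -1.86 and -1.56 in the control testes and at -3.63, -3.41 and -3.66 in the control ovaries. All testes were above all ovaries, and the log2 fold change was 1.75 (SE 0.17, limma adjusted p = 1.69e-05). *Bmp4*, a BMP needed for the founding of the germ line, was at -1.34, -1.23 and -0.69 in the control testes and at -3.01, -2.59 and -2.44 in the control ovaries. It too separated the sexes, with a log2 fold change of 1.59 (SE 0.24, limma adjusted p = 0.00038), and 1.71 without control ovary 3.

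The other 4 ligands did not pass the test between the sexes. *Tgfb2* was at 2.36, 2.05 and 1.59 in the control testes and at 0.67, 1.69 and 2.0 in the control ovaries, so the groups overlapped, with control ovary 1 well below the rest. Its log2 fold change was 0.54 (95% interval -0.13 to 1.22, adjusted p = 0.17). With the slide as a block, which sets the testes against control ovary 1 alone, it was 1.32 (adjusted p = 0.0066), and without control ovary 3 it was 0.82 (adjusted p = 0.0505). *Bmp5* behaved likewise. It was at -3.15, -3.42 and -3.27 in the control testes and at -4.63, -3.98 and -3.23 in the control ovaries, where control ovary 3 alone reached the testis range. These levels come from its 1 kept probe. Of the probes left out as dim, A_52_P118356 went the other way, with a difference of -0.18. A_51_P353264 differed by -1.06, but it lies on the minus strand, unlike the other *Bmp5* probes. It was well above background on 0 testes and 0 control ovaries, so that difference does not measure *Bmp5*. The log2 fold change of *Bmp5* was 0.67 (-0.01 to 1.34, adjusted p = 0.095), and it was 1.03 without control ovary 3 (adjusted p = 0.0074) and 1.35 with the slide as a block (adjusted p = 0.0135).

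*Tgfb3* was at 2.37, 2.27 and 2.17 in the testes, against 2.18, 2.29 and 2.41 in control ovaries. These values were interleaved, and the log2 fold change was -0.02 (-0.37 to 0.32, adjusted p = 0.91) and 0.03 without control ovary 3. *Bmp7* was at 1.27, 1.36 and 1.5 in the testes, against 1.81, 1.33 and 1.53 in control ovaries, with control ovary 1 above the testes and control ovary 2 among them. Its log2 fold change was -0.18 (-0.47 to 0.11, adjusted p = 0.28) and -0.43 with the slide as a block (adjusted p = 0.0447), where it remained under 1.5-fold.

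**Figure D2:**
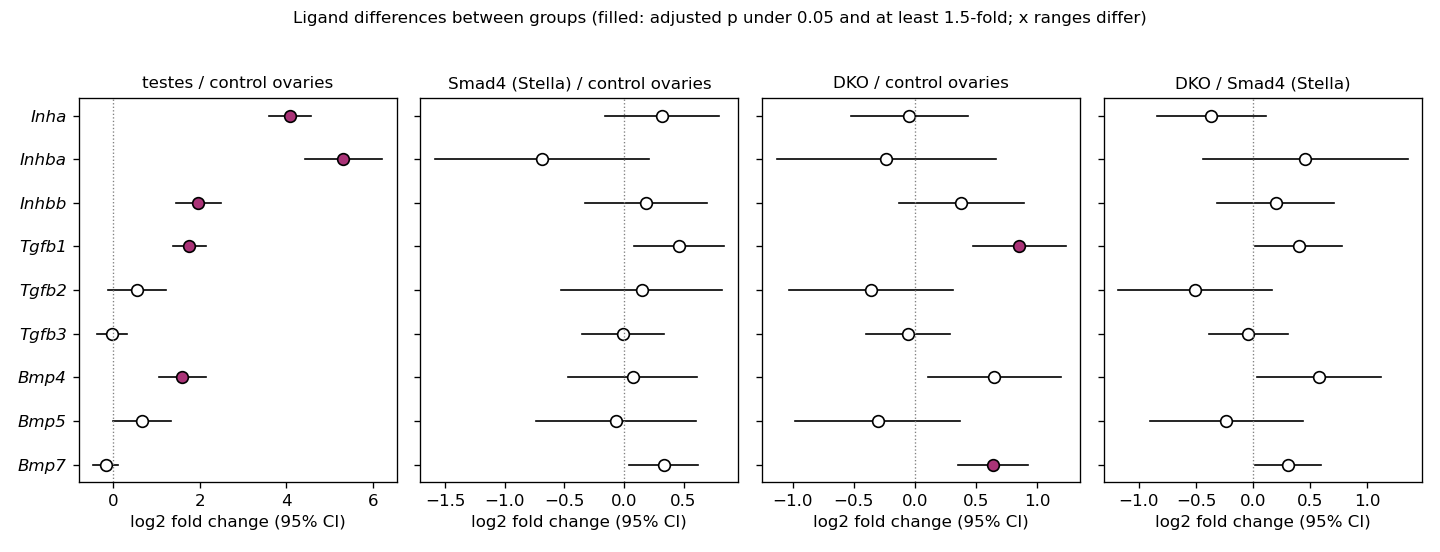
Log2 fold change of each ligand (horizontal axes, ranges differ) with its 95% confidence interval from limma, in 4 comparisons; filled points passed an adjusted p under 0.05 and 1.5-fold. The 5 filled points of testes against control ovaries run from 1.59 to 5.31, and *Tgfb1* and *Bmp7* are filled in DKO against control ovaries at 0.86 and 0.64.

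Markers of the testis moved with these 5 ligands. Of 9 Sertoli cell markers, 8 were higher in the control testes, and their mean level was 1.73 to 1.84 there and -2.85 to -2.58 in the control ovaries. All 5 measured fetal Leydig cell markers were higher, with a mean level of 3.24 to 3.39 against -2.27 to -2.13, while all 6 pregranulosa markers were lower, at -1.99 to -1.82 against 0.70 to 1.11. Of 8 macrophage genes 0 were called, of 8 endothelial genes 1 was lower, and of 7 erythroid genes 3 were lower. Of 6 genes of the mesonephric epithelium, *Lhx1* was higher (1.31) and *Gata3* lower (-2.99) in testes, and the mean level of that list was -3.76 to -3.50 in testes and -3.01 to -2.10 in control ovaries. Of 6 germ cell genes 2 were higher and 2 lower, with mean levels of 3.24 to 3.50 in testes and 3.28 to 3.86 in control ovaries. *Amh* is counted both as a Sertoli marker and as a ligand further on, and *Fst* both as a pregranulosa marker and as an inhibitor. The part of these cell types in the ligand differences was not tested.

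**Figure D3:**
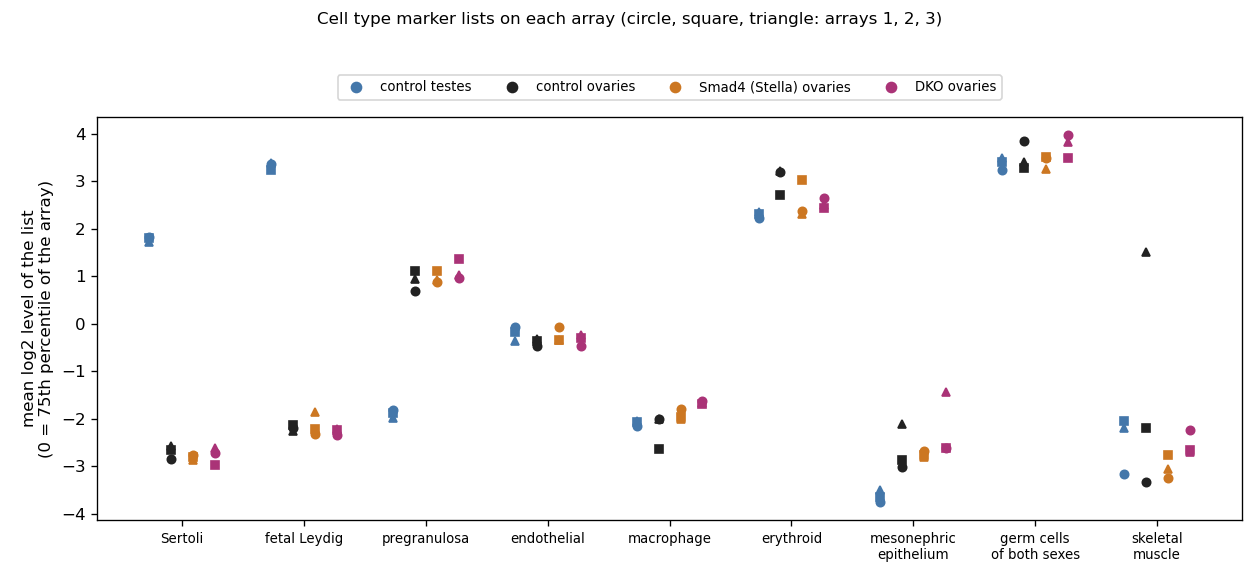
Mean relative log2 level of 9 lists of cell type markers (vertical axis) on each array; colours are the groups and circles, squares and triangles arrays 1, 2 and 3. Sertoli and fetal Leydig markers are high in the testes alone, the skeletal muscle list reaches 1.52 in control ovary 3 alone, and the macrophage list lies at -1.68 to -1.62 in DKO ovaries.

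The comparison of *Smad4 (Stella)* with control ovaries asks what targeting *Smad4* in germ cells changes. For the ligands 0 of 9 passed the test, against 0.271% of all genes, and 2 of 9 had an unadjusted p under 0.05. The median log2 fold change of the ligands was 0.15, against -0.02 over all genes, and the arrays of the groups did not overlap for 1 of the 9, *Tgfb1*, against 28.1% of all genes. *Tgfb1* was at -2.81, -3.27 and -3.25 in these ovaries, above the control ovaries by 0.46 (SE 0.17, limma adjusted p = 0.19). *Bmp7*, the other ligand with an unadjusted p under 0.05, was at 1.78, 1.97 and 1.92, where array 1 lay just below control ovary 1, and the difference was 0.33 (SE 0.13, limma adjusted p = 0.20).

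The activin and inhibin subunits did not pass the test. *Inha* was at -1.22, -0.77 and -0.68 in *Smad4 (Stella)* ovaries, a difference of 0.32 from control ovaries (95% interval -0.16 to 0.80). *Inhba* was at -1.75, -1.88 and -1.62, below 2 of the 3 control ovaries, with a difference of -0.69 (-1.59 to 0.21) that came to -0.27 without control ovary 3 and to -2.08 with the slide as a block (adjusted p = 0.12). *Smad4 (Stella)* and control ovaries shared no slide, so that value rests on the DKO ovaries as a link between slides. *Inhbb* was at -0.74, -0.96 and -0.59, a difference of 0.18 (-0.33 to 0.69).

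The remaining 4 ligands did not pass either. *Bmp4* was at -2.09, -2.91 and -2.81 in *Smad4 (Stella)* ovaries, with array 1 above the control range and the others inside it. *Tgfb2* was at 1.47, 1.52 and 1.82, *Tgfb3* at 2.48, 2.05 and 2.30, and *Bmp5* at -3.69, -3.97 and -4.39. For these 4 genes the difference from control ovaries ran from -0.07 to 0.15, with adjusted p of 0.82 to 0.97. Without control ovary 3 it ran from 0.04 for *Tgfb3* to 0.42 for *Tgfb2*, with 0.29 for *Bmp5*, and with the slide as a block from -0.48 for *Bmp5* to -0.14 for *Tgfb2*, and none of these passed the test.

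The comparison of DKO with control ovaries combines the targeting of *Smad4* with the loss of *Stra8*, a gene needed for the start of meiosis. Of the 9 ligands 2, *Tgfb1* and *Bmp7*, passed the test and were higher in DKO ovaries. Among all genes 14.6% passed in either direction and 6.68% were higher. The median log2 fold change of the 9 was -0.05, against 0.00 for all genes. The arrays did not overlap for 3 of the 9, *Tgfb1*, *Bmp4* and *Bmp7*, against 32.9% of all genes.

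In the DKO ovaries *Tgfb1* was at -2.79, -2.47 and -2.87. All 3 were above the control ovaries, whose highest array was at -3.41, and below the testes, whose lowest was at -2.03. Against control ovaries *Tgfb1* rose by 0.86 on the log2 scale (SE 0.17, limma adjusted p = 0.0049), or 1.81-fold with an interval from 1.39 to 2.36. On slide 2, where 2 DKO ovaries lie beside 2 control ovaries, it was 0.91, and in the fit with the slide as a block its adjusted p was 0.020. The call was lost with normexp background correction (0.89, adjusted p = 0.20) and with the unscaled deposited intensities (1.04, adjusted p = 0.14), where the direction stayed.

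*Bmp7*, needed in the developing kidney and eye, was at 2.31, 2.18 and 2.09 in the DKO ovaries, higher than on each of the other 9 arrays. Against control ovaries *Bmp7* rose by 0.64 on the log2 scale (SE 0.13, limma adjusted p = 0.0056), or 1.56-fold with an interval from 1.28 to 1.90. Its probes gave 0.73 (A_51_P492366) and 0.55 (A_52_P278354), so the second alone was under 1.5-fold. Within slide 2 the difference was 0.82. The call was lost without control ovary 2 (0.53, adjusted p = 0.021) and without DKO ovary 1 (0.58, adjusted p = 0.019), where the change fell below 1.5-fold, and also with normexp (0.55, adjusted p = 0.13) and with the unscaled intensities (0.82, adjusted p = 0.12).

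*Bmp4* was at -1.98, -2.14 and -1.97 in the DKO ovaries, above the 3 control ovaries and below the 3 testes, but did not pass (0.65, SE 0.24, limma adjusted p = 0.084). Without control ovary 3 the *Bmp4* difference was 0.77 and did not pass either. *Inhbb* was at -1.03, -0.24 and -0.42, with a difference of 0.38 (95% interval -0.13 to 0.89) and arrays that overlapped the control ovaries. The subunits with the widest gap between the sexes did not pass and were far below the testes. *Inha* was at -1.67, -1.14 and -0.96, a difference of -0.05 (-0.52 to 0.43), and *Inhba* was at -1.20, -2.03 and -0.66, a difference of -0.23 (-1.13 to 0.66). For *Inhba* the sign depended on the samples, since it was 0.18 without control ovary 3 and -0.99 with the slide as a block (adjusted p = 0.053).

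*Tgfb2* was tight in the DKO ovaries, at 1.16, 1.1 and 1.03, and lay inside the wide range of the control ovaries, with a difference of -0.36 (-1.03 to 0.32). Without control ovary 1, the lowest array for this gene, the difference was -0.75 and passed the test (adjusted p = 0.033), and without control ovary 3 it was -0.08. *Tgfb3* was at 2.46, 1.92 and 2.33 and *Bmp5* at -4.09, -4.46 and -4.21, with differences of -0.05 (-0.40 to 0.29) and -0.30 (-0.98 to 0.37). The sign for *Bmp5* depended on control ovary 3, since the difference was 0.06 without it and -0.67 with the slide as a block, and *Tgfb3* differed by 0.0019 without that array.

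Of 9 Sertoli markers 0 were called in this comparison, with a mean level of -2.98 to -2.61 in DKO ovaries against -2.85 to -2.58 in control ovaries. Of 5 fetal Leydig and 6 pregranulosa markers 0 were called. The macrophage list lay higher in DKO ovaries, at -1.68 to -1.62 against -2.65 to -2.0, and 1 of its 8 genes, *Cd68*, was called. Of 7 erythroid genes 1 was lower, of 6 germ cell genes 2 were higher and 1 lower, and of 8 endothelial genes 0 were called. One of 6 genes of the mesonephric epithelium, *Lhx1*, was called higher, and that list had a mean of -1.45 in DKO ovary 3 against -2.62 and -2.61 in the other DKO ovaries. Their part in the *Tgfb1* and *Bmp7* differences was not tested.

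**Figure D4:**
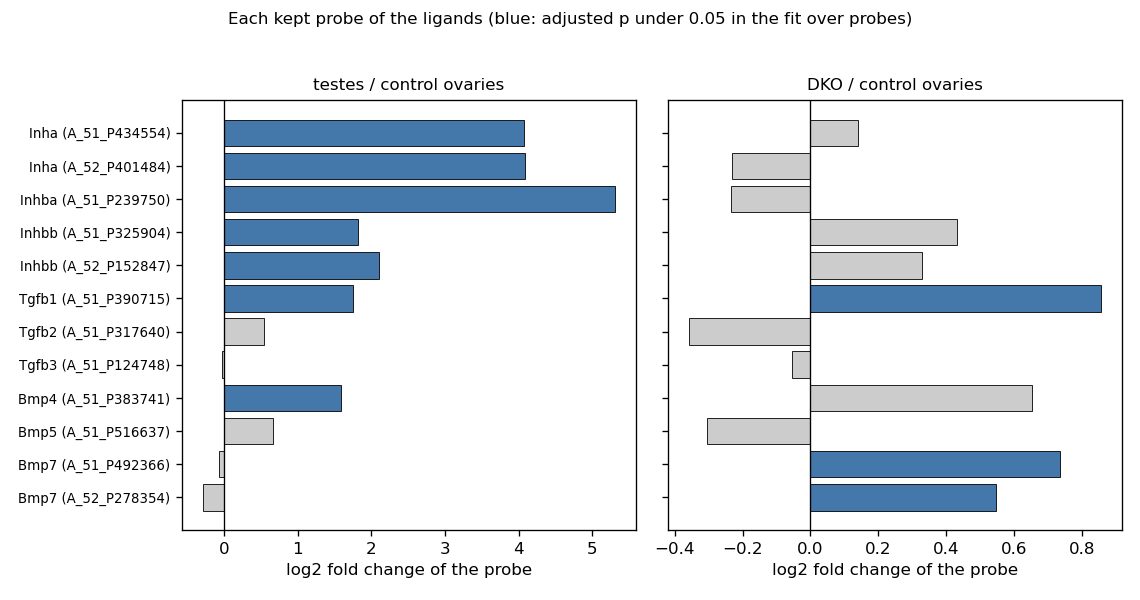
Log2 fold change of each of the 12 kept probes (horizontal axes, ranges differ) in control testes and in DKO ovaries, each against control ovaries; blue bars had an adjusted p under 0.05 in a limma fit over probes. The pairs of probes of *Inha*, *Inhbb* and *Bmp7* lie on the same side in testes, and in DKO ovaries the *Inha* probes lie on either side of 0 at 0.14 and -0.23.

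The comparison of DKO with *Smad4 (Stella)* ovaries asks what the *Stra8* genotype adds. Here 0 of the 9 ligands passed, against 8.45% of all genes, while 3 of the 9 had an unadjusted p under 0.05, namely *Tgfb1*, *Bmp4* and *Bmp7*. The median log2 fold change was 0.20, against 0.01 over all genes. *Bmp7* was higher in each DKO array than in each *Smad4 (Stella)* array, by 0.31 on average (SE 0.13, limma adjusted p = 0.17). *Tgfb2* was lower in each, by 0.51 on average (SE 0.30, adjusted p = 0.34), and for these 2 of the 9 ligands the arrays did not overlap, against 31.2% of all genes. *Tgfb1* differed by 0.40 (SE 0.17, adjusted p = 0.17) and *Bmp4* by 0.58 (SE 0.24, adjusted p = 0.16). The *Bmp4* difference was 0.84 and passed (adjusted p = 0.037) without *Smad4 (Stella)* ovary 1, which was the highest of its group. On slide 3, DKO ovary 3 differed from the 3 *Smad4 (Stella)* ovaries by 0.24 for *Tgfb1*, 0.64 for *Bmp4*, 0.20 for *Bmp7* and -0.57 for *Tgfb2*.

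The ligands were also ordered by mean level over the groups. *Inha*, *Inhba* and *Inhbb* were highest in control testes, and no pair of ovarian groups that are neighbours in the order differed by the test (adjusted p of 0.42 to 0.91). *Tgfb1* and *Bmp4* ran from control ovaries through *Smad4 (Stella)* and DKO ovaries to testes. In that order the last step passed for both, 0.90 for *Tgfb1* (adjusted p = 0.0023) and 0.94 for *Bmp4* (adjusted p = 0.012), while the steps between ovarian groups did not (adjusted p of 0.16 to 0.89). *Bmp7* ran from control testes through control and *Smad4 (Stella)* ovaries to DKO ovaries, and none of its 3 steps passed alone (adjusted p of 0.17 to 0.28). The ends of its order, DKO ovaries and testes, differed by 0.82 (SE 0.13, limma adjusted p = 0.00077). *Tgfb2* and *Bmp5* were lowest in DKO ovaries and highest in testes with no step that passed, although these ends differed by 0.90 for *Tgfb2* (adjusted p = 0.039) and 0.97 for *Bmp5* (adjusted p = 0.028). For *Tgfb3* all 4 means lay between 2.24 and 2.29. Control testes shared no slide with DKO or *Smad4 (Stella)* ovaries, so their differences from these ovaries cannot be told apart from differences between slides.

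Against control testes, 7 of the 9 ligands were thus lower in DKO ovaries, where 13% of all genes were lower, and 5 of the 9 were lower in *Smad4 (Stella)* ovaries, where 16.2% were. The comparisons share their control arrays, so the counts are not separate evidence. Those of DKO and *Smad4 (Stella)* ovaries with control testes were not repeated with other processing. In an exact two-sided permutation test of 3 arrays against 3, the smallest possible p is 0.1, and it was reached by each ligand whose arrays did not overlap.

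By Pearson's r over the 12 arrays, among 10513 genes whose level spanned at least 1, *Inha* was most like *Sez6l2* (0.995) and *Ppp1r14a* (0.994). *Inhba* was closest to *Sostdc1* (0.992) and *Map3k21* (0.992), and *Inhbb* to *Gstm7* (0.982) and *Gli1* (0.982). The nearest to *Tgfb1* were *Rhpn1* (0.981) and *Xab2* (0.977), and to *Bmp4* they were *St3gal2* (0.964) and *Asb14* (0.960). *Bmp7* had *Sept12* (0.961) and *D14Ertd668e* (0.961). These values follow the 4 groups, and for all but *Bmp7* the gap between testes and ovaries in particular. They are descriptions of 12 arrays that share slides. Among the ligands themselves r was 0.90 to 0.95 between the 3 activin and inhibin subunits and 0.94 between *Tgfb1* and *Bmp4*, while *Bmp7* ran against *Inha*, *Inhba* and *Inhbb* at -0.69 to -0.57.

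The rest of the pathway was described with 6 lists of genes. Among the other ligands of the family, 8 of 15 tested were higher in control testes than in control ovaries and 1 was lower. *Amh*, which makes the Müllerian duct regress, rose by 6.59 (adjusted p = 6.83e-09), though it was well above background in only 1 of the 3 control ovaries. *Lefty2*, an inhibitor of Nodal, was not well above background in any control ovary and was at least 19.3-fold higher in testes (adjusted p = 1.45e-06), and *Lefty1*, well above background in 1 of the 3 control ovaries, rose by 2.88 (adjusted p = 0.0061). *Gdf3*, well above background in 1 control ovary and 2 testes, was called at 4.50 (adjusted p = 0.037). Control testis 2, at 3.65, raised the size of this difference, while the other testes were at -3.87 and -3.52. With 1 array left out the log2 fold change of *Gdf3* was 2.05 or more. Its call was lost only without control ovary 2 or control ovary 3 (adjusted p of 0.087 and 0.092). The 1 lower gene, *Bmp2*, at -3.84 to -3.65 in testes and -2.10 to -1.66 in control ovaries, fell by 1.90 (SE 0.17, adjusted p = 1.01e-05). *Bmp2* is named here for its role in the ovary, after its values were seen. In DKO ovaries it was at -2.20 to -1.52 and differed by -0.05 from control ovaries.

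Against control ovaries, 3 of the 15 were higher in DKO ovaries and 0 lower. *Nodal*, a ligand of the activin branch, rose by 2.60 (SE 0.40, adjusted p = 0.0011), *Lefty1*, with its 1 control ovary well above background, by 4.73 (SE 0.69, adjusted p = 0.00085), and *Bmp8b*, which was not well above background in any control ovary, was at least 4.15-fold higher (adjusted p = 0.00027). The median of the list was 0.06. *Nodal* was at -2.46 to -0.84 in DKO ovaries, -4.56 to -3.86 in control ovaries and -1.94 to -1.26 in control testes. *Bmp8b* was at -3.85 to -3.09 in DKO ovaries and -4.41 to -4.07 in control testes. In testes it was at least 2.52-fold higher than in control ovaries (limma adjusted p = 0.00084). Neither rise was thus particular to DKO ovaries. In DKO against *Smad4 (Stella)* ovaries *Nodal* and *Bmp8b* also rose, by 2.75 and 1.87 (adjusted p = 0.0020 and 0.0025), with *Bmp8b* well above background in 1 of the 3 *Smad4 (Stella)* ovaries. *Amh* was called there too (adjusted p = 0.013) but was well above background in 0 *Smad4 (Stella)* ovaries and 1 DKO ovary, so its difference is a bound of at least 1.54-fold, and it was lost without *Smad4 (Stella)* ovary 3 (adjusted p = 0.058).

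Among the receptors, 4 of 15 were higher and 6 lower in control testes. *Bmpr1b*, a type I BMP receptor, fell by 1.54, *Amhr2*, the receptor for AMH, fell by 1.13, and *Acvr1c*, a receptor for Nodal and activins, fell by 1.08, while *Acvrl1*, found in endothelium, rose by 1.5 (adjusted p of 7.93e-06 to 0.0040). In DKO ovaries 1 receptor passed. *Tgfbr1*, the type I receptor for TGFβ, was at -1.97, -1.83 and -2.18 there and at -1.14, -0.91 and -0.85 in the control ovaries, and so fell by 1.02 (SE 0.13, adjusted p = 0.00030). It also fell by 0.77 against *Smad4 (Stella)* ovaries (adjusted p = 0.0038). *Tgfb1* and the gene of its receptor thus moved in opposite directions in DKO against control ovaries. The same was seen in control testes, where *Tgfbr1* was at -2.03 to -1.79 and *Tgfb1* was higher than in control ovaries by 1.75.

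Of 13 extracellular inhibitors and binding proteins, 5 were higher and 1 was lower in control testes. *Fst*, which encodes follistatin and binds activins, was at -4.54 to -3.92 in testes and 1.90 to 2.52 in control ovaries, and fell by 6.44 (SE 0.30, adjusted p = 1.45e-07). *Sostdc1*, a BMP antagonist, rose by 6.79 (adjusted p = 1.94e-05). The BMP antagonists *Grem1* and *Cer1* were not well above background in control ovaries and were at least 2.36-fold and at least 1.99-fold higher in testes (adjusted p = 1.56e-06 and 1.11e-05). In DKO ovaries *Fst* stayed at 1.48 to 2.57, and 1 of the 13 genes passed, *Bmper*, which fell by 0.82 (adjusted p = 0.031) and lost its call without control ovary 2, control ovary 3 or DKO ovary 2 (adjusted p of 0.083 to 0.107).

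For the proteins of latency and processing, 5 of 12 were higher and 2 lower in control testes. *Itgb8*, an integrin subunit that activates latent TGFβ, rose by 2.36, *Pcsk5*, a proprotein convertase, by 1.41 and *Ltbp4*, a latent TGFβ binding protein, by 1.03 (adjusted p of 6.13e-06 to 4.88e-05), and *Tll1*, not well above background in control ovaries, was at least 1.38-fold higher (adjusted p = 0.0095). In DKO ovaries *Thbs1*, an activator of latent TGFβ, rose by 0.65 and *Pcsk6* by 0.62 (adjusted p = 0.012 and 0.014). *Thbs1* fell under 1.5-fold without control ovary 1, at 0.45, and *Pcsk6* was not called without control ovary 2 or control ovary 3, at 0.54 and 0.58. Against *Smad4 (Stella)* ovaries *Thbs1* was called at 0.62 (adjusted p = 0.026) but not in 5 of the 12 fits that leave out 1 array, in which its adjusted p was 0.052 to 0.095; the arrays left out were each DKO ovary and *Smad4 (Stella)* ovaries 2 and 3.

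Among Smads and their intracellular inhibitors, 1 of 12 was higher and 2 were lower in control testes. The ubiquitin ligase gene *Smurf1* rose by 1.0, while *Smurf2* fell by 0.72 and *Smad5* by 0.89 (adjusted p of 7.07e-05 to 0.00031). In DKO ovaries *Skil*, an inhibitor of SMAD complexes, rose by 0.90 and *Smurf1* by 0.63, and *Smurf2* fell by 0.69 (adjusted p of 0.00067 to 0.0037). *Smurf1* was under 1.5-fold without control ovary 1 or DKO ovary 2, at 0.53 and 0.56. *Skil* was also higher in DKO than in *Smad4 (Stella)* ovaries, by 0.72 (adjusted p = 0.0083).

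Known target genes split in both directions. In control testes 3 of 12 were higher and 6 lower, with *Ccn2* up by 1.73 and the BMP targets *Msx1*, *Gata2* and *Msx2* down (log2 fold changes -3.91, -2.23 and -1.84, adjusted p of 8.68e-07 to 0.0010). In DKO ovaries 0 of the 12 were higher than in control ovaries and 2 were lower. *Msx2* fell by 1.12 (SE 0.16, adjusted p = 0.00070) and *Msx1* by 0.89 (SE 0.25, adjusted p = 0.026), the latter not being called without control ovary 2, DKO ovary 1 or DKO ovary 3 (adjusted p of 0.064 to 0.085). Against *Smad4 (Stella)* ovaries 0 of the 12 were called. *Smad4 (Stella)* against control ovaries gave 0 calls in any of the 6 lists. Yet *Lefty1*, *Msx1*, *Msx2*, *Smurf1*, *Smurf2* and *Pcsk6*, all called in DKO ovaries, did not overlap control ovaries there, as was so for 28.1% of all genes. *Lefty1* was at -3.94 to -1.81 against -7.36 to -4.97 in control ovaries. *Msx1* was at -2.90 to -2.66 against -2.23 to -1.33, and *Msx2* at -1.31 to -1.24 against -0.73 to -0.50. *Smurf1* was at -1.64 to -1.59 against -2.05 to -1.68, *Smurf2* at -0.15 to -0.06 against -0.03 to 0.19, and *Pcsk6* at 1.73 to 1.77 against 1.30 to 1.70. *Nodal* and *Bmp8b* did overlap, at -4.79 to -3.79 against -4.56 to -3.86 and -5.77 to -4.65 against -6.05 to -5.68. So did *Tgfbr1*, *Bmper*, *Thbs1* and *Skil*. Over the 6 lists, 12 of 79 genes (15.2%) were called in DKO against control ovaries, a share near the 14.6% of all genes. In testes 44 of 79 (55.7%) were called, against 33.9% of all genes, and in DKO against *Smad4 (Stella)* ovaries 6 of 79 (7.59%), against 8.45%. Of the 12 3 were called with normexp, namely *Lefty1*, *Nodal* and *Skil*, and 3 with the unscaled intensities, namely *Bmp8b*, *Lefty1* and *Nodal*.

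**Figure D5:**
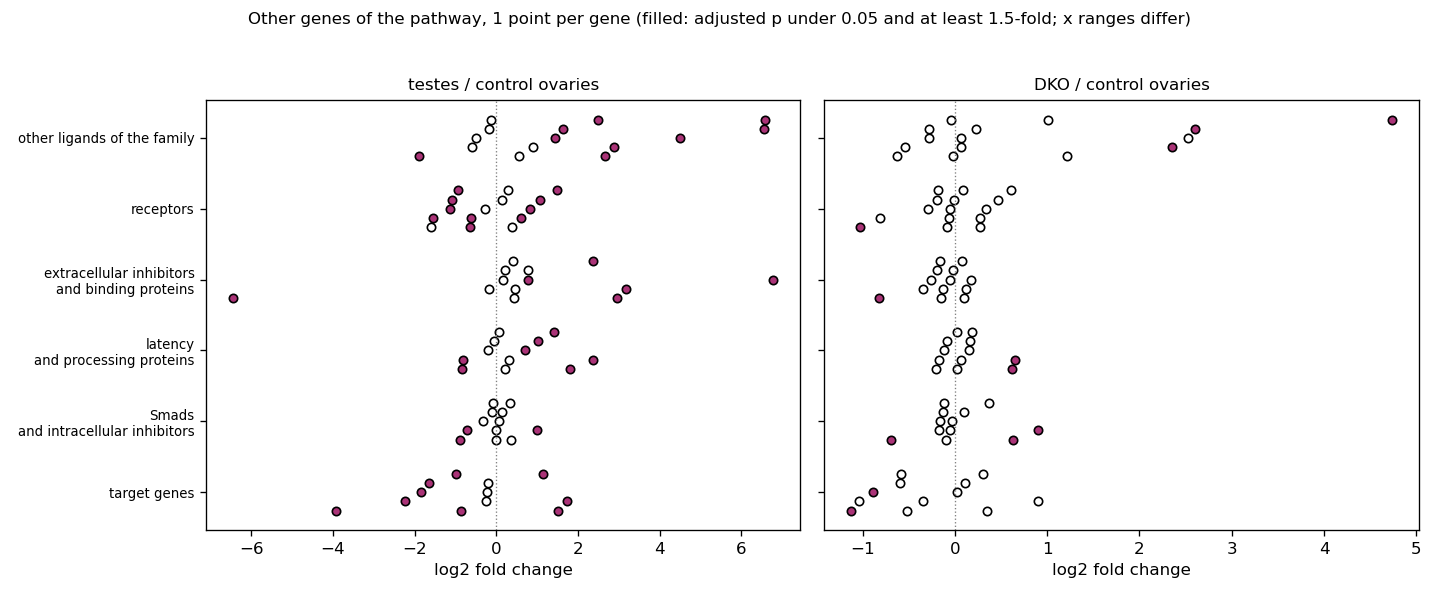
Log2 fold change (horizontal axes, ranges differ) of every tested gene of 6 pathway lists, 1 point per gene, in control testes and in DKO ovaries, each against control ovaries; filled points passed an adjusted p under 0.05 and 1.5-fold. In testes *Fst* lies alone at -6.44 and *Sostdc1*, *Amh* and *Lefty2* lie above 6, while in DKO ovaries *Lefty1* is farthest right at 4.73 and *Tgfbr1* is the filled receptor at -1.02.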

How the data were processed

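Gonads were profiled on 12 Agilent arrays with 1 dye, 3 arrays per group, and groups were taken from the sample labels. The authors deposited each array's Feature Extraction 11.0.1.1 output, in which the processed intensity already has the background removed, as well as a whole-series file of the same intensities without scaling between arrays. Probe positions are those of mm9. Starting from these intensities, the log2 value of every spot was set relative to the 75th percentile of its array (control spots left aside). Spots marked as outliers were dropped, repeats of a probe were averaged, and a probe stayed in if, in at least 1 group, a share of 0.5 or more of its spots was well above background throughout the group. This left 27311 of 41174 probes and, as means of probes, 18844 genes. Symbols of 27050 probes came from a RefSeq accession, and other probes kept the name on the array. There were 0 saturated spots. The number of arrays limits the precision.

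The 12 arrays entered a single linear model with no block (limma 3.58.1, R 4.3.3, data.table version 1.17.8), adjusted by Benjamini-Hochberg over all genes, and calls required an adjusted p below 0.05 with 1.5-fold or more. The code was tested on simulated data. The p-values of the model rest on the spread between arrays of a group, pooled over the 4 groups. Each array is 1 gonad pair, but among control ovaries this spread also holds genotype and slide, and among DKO ovaries slide. Where all arrays of a group were too dim, a fold is a bound against the lowest signal well above background. Ligands, pathway lists and markers were chosen with earlier results of these data known. Named pathway genes were up to 4 called genes of each list and comparison with the largest change, and for each called ligand the 2 genes of highest Pearson r. *Lrrc32* and *Insl3* were not matched to an array name. A gene of the target list is not reported here and was left out of that list's counts. Other scalings, background correction, probe choice, filters, blocks, tests and single arrays left out were tried as alternatives.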

Additional observations from a re-analysis of the deposited data

How the results depend on the processing

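The 5 ligands higher in control testes kept their direction in all 22 alternatives, and 4 of them were called in each. *Tgfb1* was called in 21, the exception being normexp background correction with an offset of 50 (1.09, adjusted p = 0.057). With 1 array left out, 5 to 6 ligands were called in testes against control ovaries, 0 to 0 in *Smad4 (Stella)* against control ovaries, 1 to 3 in DKO against control ovaries and 0 to 1 in DKO against *Smad4 (Stella)* ovaries. In DKO against control ovaries the 2 calls became 0 with normexp, 0 with the deposited table, 0 with the methods' t-test after Benjamini-Hochberg adjustment (3 ligands without adjustment), 1 with the brightest probe of each gene and 1 with only the groups compared in the fit, *Tgfb1* in both of the latter. *Tgfb1* had an adjusted p of 0.20, 0.14 and 0.053 in the first 3 of these, with log2 fold changes of 0.74 to 1.04 over all 22 alternatives, and *Bmp7* ran from 0.53 to 0.82. Both were higher in DKO ovaries throughout. The cause was not tested, except that the brightest probe of *Bmp7* alone was under 1.5-fold, and that 2 groups in the fit give fewer arrays. Quantile normalization also called *Bmp5* in testes (0.71, adjusted p = 0.041). *Bmp4* was called in DKO against control ovaries only without *Smad4 (Stella)* ovary 1 (adjusted p = 0.041), which enters through the shared spread. Of 360 ligand fold changes under other settings 348 stayed on their side of the threshold, and of 432 with 1 array left out 426 did, while 19 and 18 that were not called changed sign. A fit over probes, chosen after seeing the data, gave 5, 0, 2 and 0 calls in the 4 comparisons.

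Normexp shifted the median log2 fold change of all genes to 0.26 in DKO against control ovaries, and the unscaled table shifted it to 0.19 there and to 0.40 in *Smad4 (Stella)* against control ovaries. With these, the genes called in DKO against control ovaries numbered 914 and 986, against 2760. That number was 1098 by the t-test and 4223 with no limit on the fold. In testes 2669 and 3722 genes were called with normexp and the deposited table, against 6394. DKO against *Smad4 (Stella)* ovaries gave 1592 genes, 222 with normexp, 521 with the deposited table, 83 by the t-test and 933 with the slide as a block. The numbers of *Smad4 (Stella)* against control ovaries were the least stable, at 51 genes, 2 with normexp, 12 with the deposited table, 2 with no filter on dim probes, 9 with only its groups, 1 by the t-test, 15 with the slide and 4 with the replicate number as a block. Same-numbered arrays did not deviate together (r of -0.18 to 0.15), which shows no pairing by number but cannot exclude one. The replicate block gave 5, 0, 2 and 0 ligands called in the 4 comparisons. The slide as a block gave 7, 0, 2 and 0. Over the 6 pathway lists the calls in testes fell from 44 to 21 with normexp. The 3 arrays per group limit what could be called, and signal over background limits *Bmp5* to 1 probe.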
